A study of Mus musculus with 8 samples.

Results

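Aldh1l1, Lce1f, Prss46, Fam167a and Hcar2 are 5 of the 18102 genes measured by RNA sequencing in NMuMG, an epithelial cell line from the mouse mammary gland. They were chosen because they had few or no reads under SB505124, a compound that blocks the kinase of the type I TGFβ receptor, and clear expression after 1.5 h of TGFβ. They were thus selected on their measured reads in the comparison of TGFβ with SB505124, and the values in that comparison are given as a description with no test. The label "from near zero" held for 4 of the genes, which had 0 to 6 reads in each SB505124 library. It did not hold for Fam167a, which had 28 and 32 reads in the WT libraries and 8 and 8 reads in the KO-labelled libraries under SB505124.

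The 8 libraries form 4 groups of 2, which cross the genotype with the treatment after 6 h without serum. KO-labelled cells received 100 pM TGFβ for 1.5 h, WT cells received 100 pM TGFβ for 1.5 h, KO-labelled cells received 2.5 µM SB505124 for 6 h, and WT cells received 2.5 µM SB505124 for 6 h. The SB505124 libraries are thus not untreated, and exposure times differ between the treatments. KO stands for knockout of RREB1, a zinc finger factor. Every KO library carries the code KO1, and if that is 1 line, the genotype and the line cannot be told apart. Rreb1 itself was read at 2481 and 2241 normalised counts in the KO-labelled libraries and at 1959 and 1769 in the WT libraries under TGFβ, so KO is used only as a label. Library depth was 25144204 to 32143113 reads. The epithelial markers Krt8, Krt18, Krt19 and Cdh1 averaged 83630, 95340, 19950 and 19570 normalised counts over the libraries, as an epithelial line would have. Other markers of the same list did not follow. Epcam had no reads in the 4 KO-labelled libraries and 4.00 to 36.6 normalised counts in the WT libraries, and Cldn3 and Esrp1 had no row. In bulk RNA, more RNA per cell and more cells that express a gene cannot be told apart.

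TGFβ binds a pair of receptor kinases, and the type I receptor phosphorylates SMAD proteins that enter the nucleus and act on genes together with partner factors. An inhibitor of the type I kinase blocks signalling from TGFβ in the medium or from the cells themselves. The 5 genes share no known pathway. Aldh1l1 encodes a dehydrogenase that converts formyl-tetrahydrofolate to tetrahydrofolate, and it is widely used as a marker of astrocytes. Lce1f encodes a small protein of the late cornified envelope family, which is cross-linked into the outer layer of epidermal cells. Prss46 belongs to a cluster of trypsin-like serine protease genes known for expression in the mouse testis. Fam167a is a little studied gene that lies beside the kinase gene Blk, and work in human leukaemia cells linked its product to noncanonical NF-kB signalling. Hcar2 encodes a receptor coupled to inhibitory G proteins that binds hydroxybutyrate and niacin and restrains lipolysis in fat cells.

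The 5 genes lie on 5 chromosomes (build GRCm38, which is mm10, GENCODE M21). Aldh1l1 (ENSMUSG00000030088.15) is on the plus strand of chromosome 6 from 90486427 to 90600203. Lce1f (ENSMUSG00000042124.5) is on the minus strand of chromosome 3 from 92718685 to 92720350, and its exons span only 728 bases. Prss46 (ENSMUSG00000049719.14) is on the plus strand of chromosome 9 from 110844506 to 110856522. Fam167a (ENSMUSG00000035095.11) is on the plus strand of chromosome 14 from 63436394 to 63465498. Hcar2 (ENSMUSG00000045502.6) is on the minus strand of chromosome 5 from 123863570 to 123865499 and has 1 exon. All of them are protein coding.

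Promoter sequence from RefSeq (GRCm38.p6) was matched for 2 of the 5 genes, Aldh1l1 and Prss46, which are also the 2 with no reads in either WT library under SB505124. The 250 bases before each start are shown on the gene's strand, 5′ to 3′, so that the letters before the start of these 2 genes can be read beside their values. Capitals mark the motif CAGACA, an extended form of the DNA element that SMAD proteins bind. The windows are chr6:90550543-90550792 (plus strand) for Aldh1l1, which lies inside the longer GENCODE gene, and chr9:110844256-110844505 (plus strand) for Prss46.
Aldh1l1: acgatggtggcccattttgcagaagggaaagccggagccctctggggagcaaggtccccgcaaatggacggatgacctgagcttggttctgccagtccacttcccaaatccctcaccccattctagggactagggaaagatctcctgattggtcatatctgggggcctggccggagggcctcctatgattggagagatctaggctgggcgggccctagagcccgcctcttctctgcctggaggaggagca
Prss46: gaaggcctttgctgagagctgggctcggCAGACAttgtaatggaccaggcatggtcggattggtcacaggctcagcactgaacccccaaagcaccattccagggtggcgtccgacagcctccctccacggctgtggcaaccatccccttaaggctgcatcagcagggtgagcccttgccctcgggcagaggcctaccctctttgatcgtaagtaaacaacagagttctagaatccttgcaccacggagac

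Each of 4 motifs was searched on both strands of these windows, and there was a single match, so none overlaps another. CAGACA occurred once, in Prss46, where its first base lies at position -222 from the start, and 17.1% of the 32851 promoter windows of the same length hold it. The SMAD palindrome GTCTAGAC (0.167% of windows), the AP-1 motif TGANTCA (6.75%) and the TATA box TATAAA (12.4%) were in neither window. A match is a description of letters, not a binding site.

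Aldh1l1 had 69.5 and 74.3 normalised counts in WT cells under TGFβ, against 0 and 0 under SB505124. A normalised count is a read count divided by the size factor of its library. In KO-labelled cells it had 29.8 and 25.6 under TGFβ, against 5.58 and 3.45 under SB505124. The groups did not overlap, and the 2 genotypes stood in opposite order under the 2 treatments. With no reads under SB505124 in WT, the ratio there has no upper end; with 3 reads set for the SB505124 pair, TGFβ stood at least 47.5-fold higher. In KO-labelled cells the ratio of TGFβ to SB505124 was 6.14 on 56 and 10 reads, with an exact 95% counting interval of 3.14 to 13.6. The intervals for ratios of TGFβ to SB505124, here and below, cover counting error only. The bounds cover that of the SB505124 reads alone and take the TGFβ reads as counted. Without either WT SB505124 replicate the bound is 23.6 to 23.9, since the same 3 reads are then spread over 1 library.

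Lce1f had 190 and 177 normalised counts in KO-labelled cells under TGFβ, against 0.931 and 4.32 under SB505124. It had 115 and 127 in WT cells under TGFβ, against 0 and 2.00 under SB505124. Each TGFβ library lay far above each SB505124 library, in both genotypes. The ratio was 69.9 on 370 and 6 reads in KO-labelled cells (counting interval 31.1 to 187) and 121 on 220 and 2 reads in WT cells (32.7 to 994). A few reads of single libraries set these ratios. The KO-labelled ratio was 197 without KO SB505124 replicate 2 and 42.5 without KO SB505124 replicate 1, and the WT ratio was 39.7 without WT SB505124 replicate 2, a bound, and 60.3 without WT SB505124 replicate 1.

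Prss46 had 58.9 and 42.3 normalised counts in WT cells under TGFβ and 15.4 and 26.7 in KO-labelled cells under TGFβ. It had no read in any of the 4 SB505124 libraries. TGFβ stood at least 33.7-fold higher in WT on 93 reads and at least 15.5-fold higher in KO-labelled cells on 42 reads. Prss46 was thus the gene of the 5 with no read at all under the inhibitor in both genotypes. Without WT SB505124 replicate 2 or replicate 1 the WT bound is 16.7 or 16.9, and without KO SB505124 replicate 2 or replicate 1 the KO bound is 7.53 or 8.12.

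Fam167a reached 1130 and 1116 normalised counts in WT cells under TGFβ, against 28.4 and 32.04 under SB505124. In KO-labelled cells it had 349 and 365 under TGFβ, against 7.45 and 6.91 under SB505124. It had the most reads of the 5 genes under both treatments and the closest replicates under TGFβ, and KO-labelled cells stood below WT cells under both. The ratio of TGFβ to SB505124 was 49.8 in KO-labelled cells (719 and 16 reads, interval 30.5 to 87.6) and 37.2 in WT cells (2050 and 60 reads, interval 28.8 to 48.9), and these intervals overlap.

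Hcar2 had 76.1 and 52.3 normalised counts in KO-labelled cells under TGFβ, against 0.931 and 0.864 under SB505124. It had 61.1 and 70.9 in WT cells under TGFβ, against 1.01 and 1.00 under SB505124. Each SB505124 library held exactly 1 read of it. The ratio was 71.5 in KO-labelled cells (130 and 2 reads, interval 19.5 to 601) and 65.5 in WT cells (120 and 2 reads, interval 17.7 to 545). The WT and KO-labelled values overlapped under TGFβ.

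**Figure D1:**
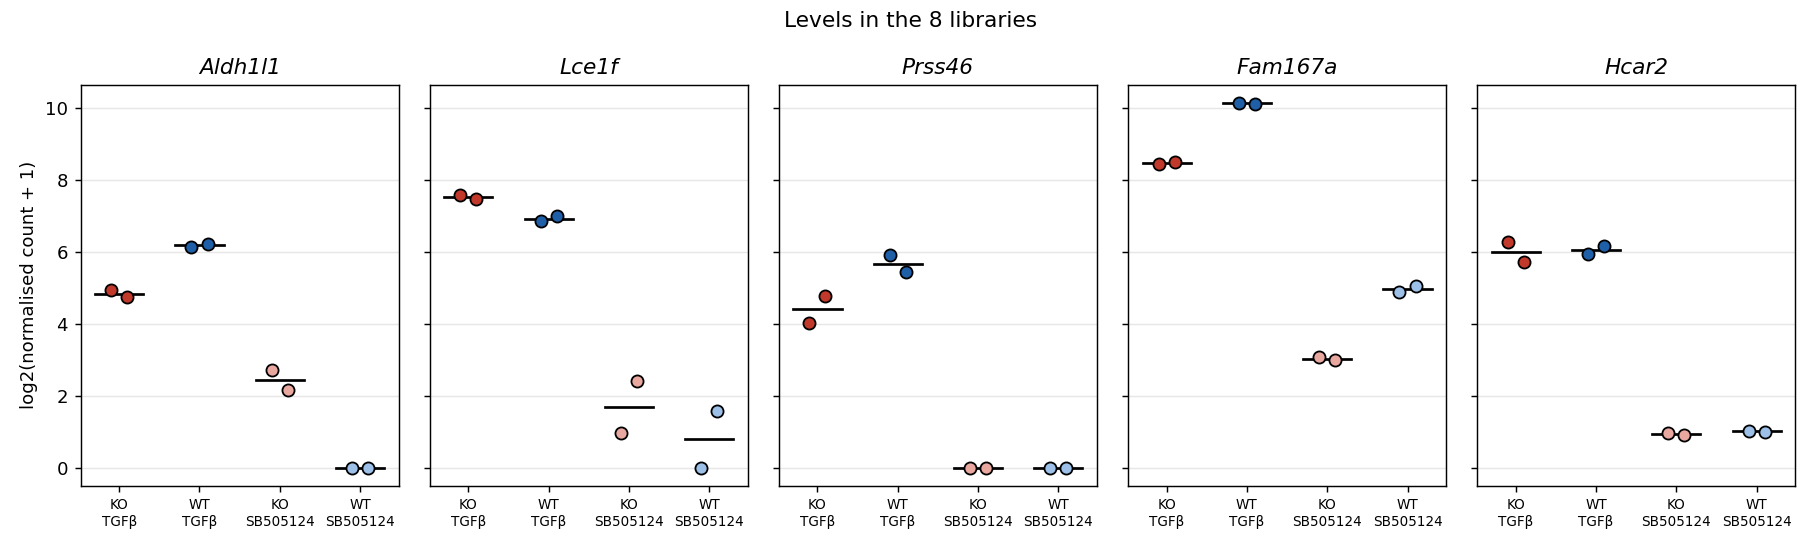
Each point is 1 library, placed by log2(normalised count + 1) on the vertical axis and by group on the horizontal axis, with a bar at the mean of the 2 libraries on that scale. The TGFβ libraries lie above the SB505124 libraries for each gene, Aldh1l1, Prss46 and Fam167a are lower in KO than in WT under TGFβ, and Hcar2 overlaps between the genotypes.

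In the fit across 12498 genes with a mean of at least 10, all 5 genes passed the filter on low values, but Aldh1l1, Lce1f, Prss46 and Hcar2 passed it only through their TGFβ libraries. Their log2 fold changes are therefore a description. In WT cells Aldh1l1 (6.19), Lce1f (6.13), Prss46 (5.67), Fam167a (5.17) and Hcar2 (5.06) ranked 2, 3, 4, 6 and 7 of the 12498. In KO-labelled cells Lce1f (5.85), Fam167a (5.45), Hcar2 (5.08) and Prss46 (4.41) ranked 3, 4, 5 and 13, whereas Aldh1l1 (2.40) ranked 102. These values carry the added 1 on the log scale and understate the change of a gene with few reads.

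**Figure D2:**
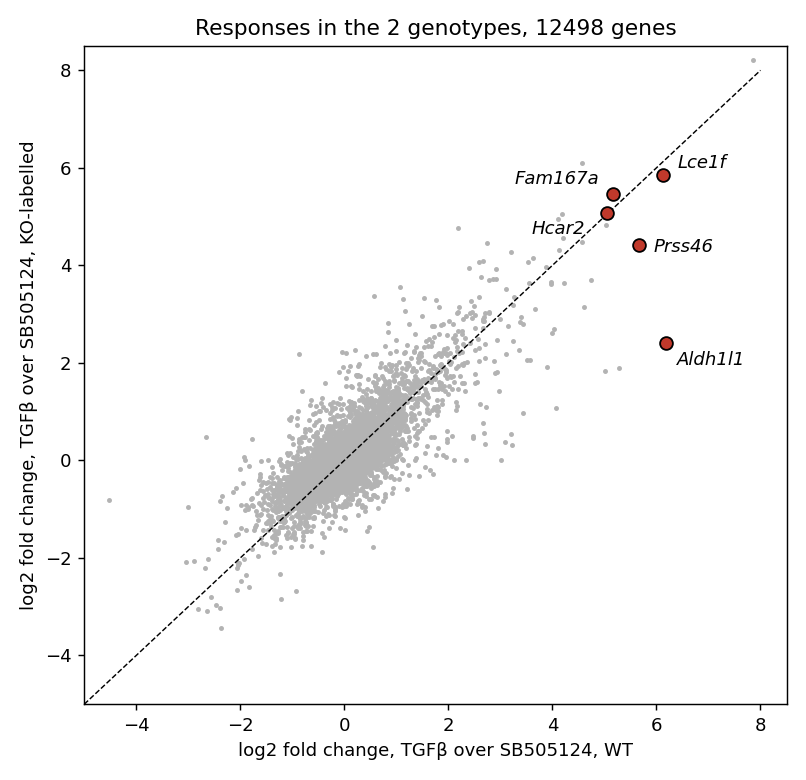
Each point is 1 of 12498 genes, with the log2 fold change of TGFβ over SB505124 in WT cells on the horizontal axis and in KO-labelled cells on the vertical axis, and the dashed line marks equal responses. Lce1f, Fam167a and Hcar2 lie near the line at 5 or more in both genotypes, and Aldh1l1 lies farthest below it of the 5 at 6.19 in WT and 2.40 in KO-labelled cells.

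Few other genes of the table had this on-off form. A gene was counted as switched on where each SB505124 library of a genotype held at most 5 reads and each TGFβ library reached a normalised count of 20. In WT cells 30 genes did so (0.166% of the table), among them Aldh1l1, Lce1f, Prss46 and Hcar2. In KO-labelled cells 15 did so (0.0829%), among them Lce1f and Hcar2, and Prss46 and Aldh1l1 were outside because a TGFβ library of Prss46 was at 15.4 and an SB505124 library of Aldh1l1 held 6 reads. Both genotypes shared 6 genes, which were Lce1f, Hcar2, Arc, Cldn4, Dusp2 and Lrrc2, named here after their values were seen. The reverse pattern was met by 1 gene in WT, Trim71, and by Atoh8 and Rgs2 in KO-labelled cells, likewise named after their values were seen.

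Levels can be set between genes only per length, as normalised counts per kb of exon. Under TGFβ in KO-labelled cells the order was Lce1f (252 ± 11.95, SD, n = 2), Fam167a (83.6 ± 2.56), Hcar2 (33.3 ± 8.71), Prss46 (15.6 ± 5.91) and Aldh1l1 (6.14 ± 0.660). Each neighbour in that order was separated from the next in both libraries. Under TGFβ in WT cells it was Fam167a (263 ± 2.48), Lce1f (166 ± 11.8), Prss46 (37.6 ± 8.75), Hcar2 (34.2 ± 3.59) and Aldh1l1 (15.9 ± 0.755), and Prss46 and Hcar2 overlapped. Per length, Fam167a under TGFβ in WT lay above 71.4% of the 17151 genes with a length, and Aldh1l1 above 39.1% of them. Even the switched-on level of Aldh1l1 was thus low for this table. Under SB505124 the highest of these levels per kb was that of Fam167a in WT (7.07 ± 0.605).

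**Figure D3:**
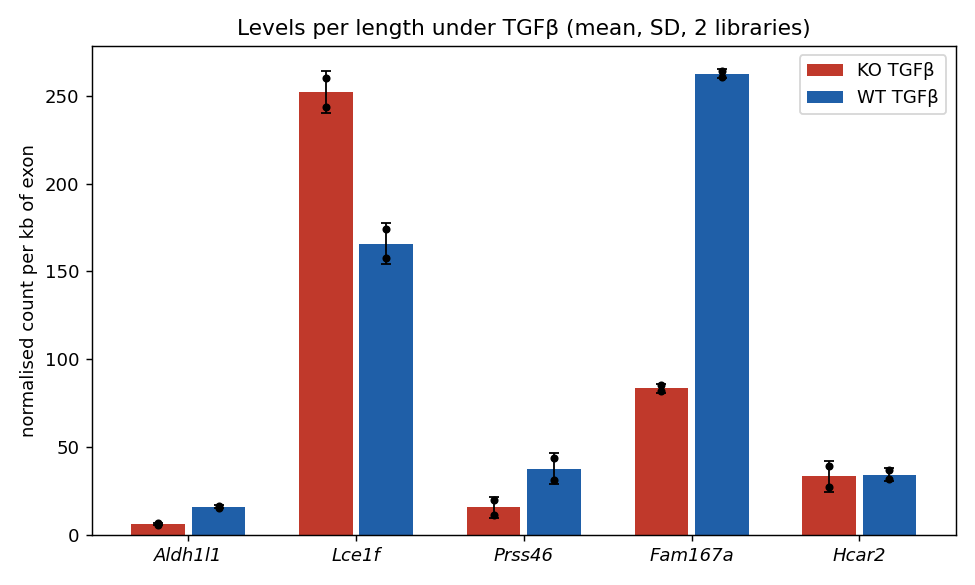
Bars give the mean level under TGFβ in normalised counts per kb of exon for the KO and WT groups, with the SD as error bar and the 2 libraries as points. Fam167a and Lce1f exceed 80 per kb in both groups and exchange places between them, and Aldh1l1 is lowest in both at 6.14 and 15.9.

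Whether the genotype label mattered under TGFβ was tested, since the genes were not chosen for that comparison, although the same libraries took part in the choice. Aldh1l1, Lce1f, Prss46 and Hcar2 also passed the filter on low values only through the TGFβ libraries compared here. For Aldh1l1 and Prss46 the filtered mean came mostly from the WT TGFβ libraries, where they stood highest. Their differences between the genotypes are therefore a description with no test. In the limma fit Fam167a was lower in KO-labelled cells (357 ± 11.0) than in WT cells (1123 ± 10.6), by -1.65 ± 0.17 on the log2 scale (SE, adjusted p = 8.9e-08). Aldh1l1 was lower in KO-labelled cells (27.7 ± 2.98) than in WT cells (71.9 ± 3.41), by -1.35 ± 0.45. Of all tested genes, 62.9% passed in this comparison and 30.2% passed with a lower level in KO-labelled cells, as Fam167a did.

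Prss46 stood at 21.0 ± 7.96 in KO-labelled cells and 50.6 ± 11.8 in WT cells under TGFβ. Its log2 difference of -1.26 ± 0.59 is likewise a description. Count models on the recovered reads put that difference at -1.31 in edgeR and -1.28 in DESeq2. Lce1f stood at 184 ± 8.70 in KO-labelled cells and 121 ± 8.58 in WT cells. Its log2 difference of 0.60 ± 0.49 did not pass (limma adjusted p = 0.295, 95% interval -0.42 to 1.62). For Lce1f the count models differed, with an adjusted p of 0.0097 in edgeR and 0.0374 in DESeq2. Hcar2 stood at 64.2 ± 16.8 in KO-labelled cells and 66.0 ± 6.94 in WT cells, a log2 difference of -0.06 ± 0.43 (limma adjusted p = 0.913, interval -0.95 to 0.84). In 4 of the 5 genes the KO-labelled and WT libraries did not overlap under TGFβ, as in 79.8% of all tested genes.

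The response to TGFβ itself was compared between genotypes by the difference of the log2 responses, KO minus WT. Of all tested genes 2.82% passed, 2.25% with a higher and 0.568% with a lower response in KO-labelled cells. The responses that make up this difference are those the 5 genes were selected on, so their differences are a description with no test. That of Aldh1l1 was -3.78 ± 0.63 (SE, n = 2 per group). The gene was lower in KO-labelled cells under TGFβ and higher under SB505124, with 10 reads in KO-labelled cells and 0 in WT cells. The size of that difference depends on how the group without reads is handled, and it ran from -6.59 in edgeR to -2.34 with 4 added in place of 1. DESeq2 gave no adjusted p for it and is left out of that range. The differences of Lce1f (-0.29 ± 0.69), Prss46 (-1.26 ± 0.83), Fam167a (0.28 ± 0.24) and Hcar2 (0.02 ± 0.60) were smaller. For Fam167a the KO-labelled level was lower under both treatments, by a ratio of 0.318 under TGFβ and 0.238 under SB505124.

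The genes beside each of the 5 were taken by position and not for their response. Of the 50 genes of the table that lie nearest, 5 on each side of each gene, 27 were tested. In KO-labelled cells 9 rose (33.3%, against 15.1% of all tested genes) and 4 fell (14.8%, against 15.8%). In WT cells 10 rose (37.0%, against 20.2%) and 4 fell (14.8%, against 23.2%). With both directions joined the shares were 48.1% against 30.9% in KO-labelled cells and 51.9% against 43.3% in WT cells. Prss50 and Lrrc2, both beside Prss46, are counted among those that rose in each genotype. They passed the filter on low values only through TGFβ libraries, which favoured a rise, so their values are given without a test. The shares of rises include them, and no conclusion is drawn from these shares.

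Prss50, which starts 1.45 kb beyond the end of Prss46 on the same strand and encodes another protease of the cluster, had 4.81 and 9.23 normalised counts in KO-labelled cells under TGFβ, against 1.86 and 0.864 under SB505124. In WT cells it had 37.9 and 38.9 under TGFβ, against 6.08 and 11.0 under SB505124. The TGFβ libraries lay above the SB505124 libraries in each genotype, and the KO-labelled libraries lay below the WT libraries under TGFβ. Lrrc2, a leucine-rich repeat gene 95 kb away that was singled out after its values were seen, had 32.7 and 34.9 under TGFβ in KO-labelled cells, against 1.86 and 1.73 under SB505124, and 42.1 and 48.0 in WT cells, against 2.03 and 1.00. Its TGFβ and SB505124 libraries did not overlap in either genotype. Als2cl, which lies between them, averaged 2828 in KO-labelled cells under TGFβ, against 2887 under SB505124, and 5574 in WT cells under TGFβ, against 5957. It did not pass in KO-labelled cells (limma adjusted p = 0.845) or in WT cells (limma adjusted p = 0.427). On the other side, Prss45 and Prss42 together had 8 reads over the 8 libraries.

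Lce1f sits inside a run of similar genes, and its nearest neighbours in the table are the paralogs Lce1e and Lce1g. Of the 13 other Lce1 genes 11 had a row and 2 reached a mean of 10, Lce1g and Lce1h. Lce1g had 521 ± 49.9 normalised counts in KO-labelled cells under TGFβ, against 482 ± 37.3 under SB505124, and it did not pass (limma adjusted p = 0.478). In WT cells it had 605 ± 4.21 under TGFβ, against 412 ± 41.3, a rise of 1.47-fold (limma adjusted p = 5.5e-04). Lce1g was thus well expressed under SB505124, where Lce1f had 0 to 5 reads in a library. Reads in stretches shared by paralogs cannot be assigned with certainty: of the 669 runs of 50 bases in the Lce1f transcript, 13.8% also occur in another gene and 6.88% in Lce1g. None of the runs of Prss46, Fam167a or Hcar2 occurs in another gene.

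The genes next to Fam167a, Blk 19.4 kb away on the lower side and Tdh 26.9 kb away on the higher side, had 4 and 3 reads over all libraries. Beside Hcar2, Denr, which encodes a factor of translation reinitiation 41.7 kb away, rose 1.49-fold in KO-labelled cells (limma adjusted p = 2.5e-05) and 2.64-fold in WT cells (limma adjusted p = 1.6e-10). Kntc1, a kinetochore gene 42 kb away on the other side, did not pass in KO-labelled cells (limma adjusted p = 0.405) and fell by 0.34 on the log2 scale in WT cells (limma adjusted p = 0.00266). Beside Aldh1l1, the magnesium transporter family gene Slc41a3, 4.52 kb beyond its end on the same strand, rose 2.71-fold in KO-labelled cells (limma adjusted p = 8.1e-06) and 1.71-fold in WT cells (limma adjusted p = 0.003), whereas Klf15 on the other side had 2 reads in all. The antisense gene Gm15756 overlaps Aldh1l1, and as the kit is unstranded their reads are inseparable where they overlap. Gm45901 and Gm44236 overlap Aldh1l1 on its own strand. Of the runs of 50 bases in Aldh1l1 transcripts, 10.0% also occur in another gene, 8.8% in Gm15756 and 1.22% in Gm45901.

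**Figure D4:**
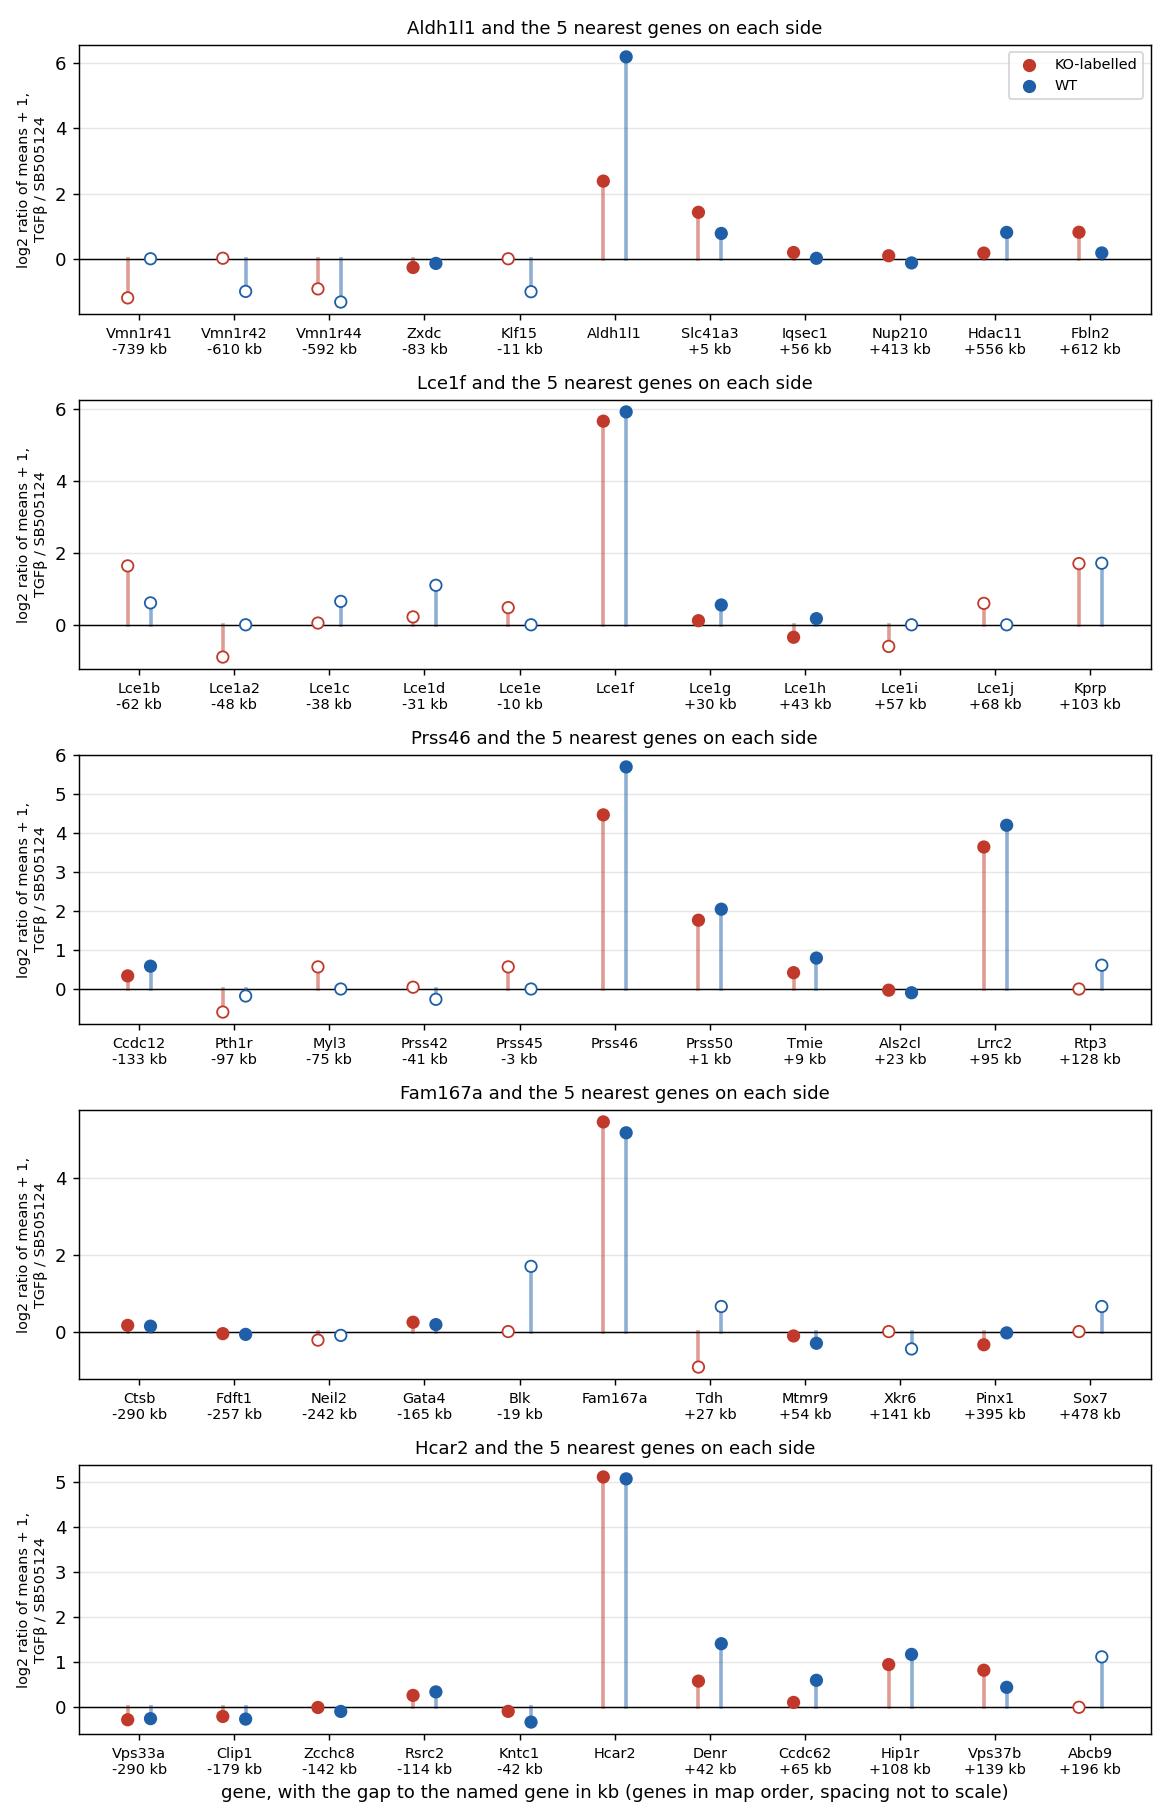
Each panel shows 1 of the 5 genes in the middle and the 5 nearest genes on each side in map order, with the gap in kb under each name, and the vertical axis gives the log2 ratio of TGFβ to SB505124 of the group means after adding 1, for KO-labelled and WT cells. Open points are genes with a mean under 10. The 5 genes, which were chosen on the reads behind this ratio, stand above their neighbours. Prss50 and Lrrc2 beside Prss46, which passed the filter on low values only through TGFβ libraries, lie above 0 in both genotypes.

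The other genes of each pathway were read from 1 list per pathway in the TGFβ comparisons, where 15.1% of all tested genes rose and 15.8% fell in KO-labelled cells, and 20.2% rose and 23.2% fell in WT cells. Of 21 tested folate and one-carbon genes, 4 rose and 6 fell in KO-labelled cells (median log2 change -0.11, against -0.02 for all genes). In WT cells 3 rose and 10 fell (median -0.19, against -0.01), with 5 falling without WT SB505124 replicate 2. The folate transporter gene Slc46a1 rose 1.96-fold in KO-labelled cells (limma adjusted p = 5.5e-06) and 1.71-fold in WT cells (limma adjusted p = 7.1e-05). Mthfd1, which interconverts the one-carbon forms of tetrahydrofolate, fell by 0.46 on the log2 scale in WT cells (limma adjusted p = 1.5e-04). Aldh1l2, the mitochondrial relative of Aldh1l1, was named after its values were seen and stayed under the filter. It averaged 3.88 in KO-labelled cells under TGFβ, against 2.66 under SB505124, and 13.9 in WT cells under TGFβ, against 12.1.

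Of 13 tested cornified envelope genes, 1 rose and 1 fell in KO-labelled cells (median 0.07, against -0.02 for all genes), and 2 rose and 2 fell in WT cells (median 0.18, against -0.01). Lor, which encodes loricrin, a main envelope protein, rose 2.77-fold in KO-labelled cells on a mean of 25.7 under TGFβ, against 9.27 under SB505124 (limma adjusted p = 0.0078). That call was lost without KO SB505124 replicate 1 or KO TGFβ replicate 1, when 0 genes of the list rose in KO-labelled cells. The rise count in WT was 1 without WT SB505124 replicate 1, and the fall count in KO-labelled cells was 0 without KO TGFβ replicate 2. Ppl, which encodes the linker periplakin, fell by 0.34 in KO-labelled cells (limma adjusted p = 0.00307) and by 0.71 in WT cells (limma adjusted p = 1.0e-06). Of the 4 keratinocyte markers with a row, Krt10 had 1164 reads, Ivl 827, Lor 151 and Krt1 1 over the 8 libraries.

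Of 15 tested trypsin-like protease genes, 5 rose and 2 fell in KO-labelled cells (median -0.03, against -0.02 for all genes), and 4 rose and 2 fell in WT cells (median 0.13, against -0.01), with 4 falling without WT TGFβ replicate 1. Prss50 is 1 of those counted as risen in each genotype, and it passed the filter on low values only through TGFβ libraries, which favoured a rise. Prss22, a tryptase family gene, had 693 and 733 normalised counts in KO-labelled cells under TGFβ, against 47.5 and 65.6 under SB505124, and 536 and 453 in WT cells, against 36.5 and 25.03. It rose 12.6-fold in KO-labelled cells (limma adjusted p = 1.4e-11) and 15.8-fold in WT cells (limma adjusted p = 5.0e-12). Prss27 rose 5.21-fold in KO-labelled cells (limma adjusted p = 6.9e-06) and 4.84-fold in WT cells (limma adjusted p = 1.1e-05). Plat, the tissue plasminogen activator gene, fell by 0.58 on the log2 scale in WT cells (limma adjusted p = 1.5e-05).

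Of 12 tested noncanonical NF-kB genes, 6 rose and 2 fell in KO-labelled cells (median 0.19, against -0.02 for all genes), and 4 rose and 2 fell in WT cells (median 0.11, against -0.01). Map3k14, which encodes the kinase that starts this branch, rose 2.49-fold in KO-labelled cells (limma adjusted p = 8.3e-09) and 1.94-fold in WT cells (limma adjusted p = 7.4e-07). The rises numbered 3 in KO-labelled cells without KO SB505124 replicate 1 and 2 in WT cells without either WT SB505124 replicate. The falls were 1 in KO-labelled cells without any 1 of the libraries other than the WT TGFβ ones, and 1 in WT cells without WT SB505124 replicate 1 or 2, WT TGFβ replicate 1 or KO TGFβ replicate 1 or 2.

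Of 10 tested metabolite and lipid receptor genes, 3 rose and 3 fell in KO-labelled cells (median -0.21, against -0.02 for all genes), and 1 rose and 3 fell in WT cells (median -0.25, against -0.01). Lpar2, a receptor for lysophosphatidic acid, fell by 0.73 on the log2 scale in both KO-labelled cells (limma adjusted p = 2.5e-06) and WT cells (limma adjusted p = 2.6e-06). Adora1, an adenosine receptor gene, rose 1.54-fold in WT cells (limma adjusted p = 3.9e-05). Of 15 SMAD feedback and direct TGFβ target genes, 15 rose in KO-labelled cells (median 1.92, against -0.02 for all genes) and 14 rose in WT cells (median 1.62, against -0.01).

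Markers of cells in which some of these genes are known were read beside them. The astrocyte list summed to 20.2 to 21.5 normalised counts in KO-labelled cells and 69.5 to 70.9 in WT cells under TGFβ, and to 10.2 to 11.2 and 43.6 to 44.1 under SB505124, so it was lower in KO-labelled cells under both treatments, as Aldh1l1 was under TGFβ but not under SB505124. The glutamate transporter gene Slc1a2 was its largest member, with 11.6 and 13.3 in KO-labelled cells and 64.2 and 65.2 in WT cells under TGFβ, and 6.51 and 8.64 in KO-labelled cells and 42.6 and 38.0 in WT cells under SB505124. Of the others S100b had 36 reads over all 8 libraries, and Gfap, Aqp4 and Slc1a3 had 3, 1 and 1. The cornifying keratinocyte list summed to 287 to 300 in KO-labelled cells and 228 to 240 in WT cells under TGFβ, against 303 to 314 and 216 to 223 under SB505124. The adipocyte list, read beside Hcar2, summed to 8.66 to 19.5 and 14.7 to 16.0 under TGFβ, against 16.4 to 21.4 and 13.0 to 19.3 under SB505124, and over all libraries Fabp4 had 81 reads, Cidec 44 and Adipoq 5. The fibroblast list summed to 136 to 141 and 163 to 172 under TGFβ, against 35.4 to 45.8 and 126 to 128 under SB505124. The basal list summed to 74.1 to 82.0 and 50.3 to 66.3 under TGFβ, against 66.1 to 87.2 and 17.2 to 20.03 under SB505124. The endothelial list summed to 6.15 to 13.5 and 25.1 to 40, against 3.72 to 4.32 and 14.2 to 21.0. The leukocyte list summed to 406 to 502 and 394 to 424, against 393 to 473 and 367 to 403, mostly from Lyz2, and Ptprc had 65 reads in all. In each of these pairs of ranges the KO-labelled cells are followed by the WT cells. Over the 8 libraries Krt5 ran from 0 to 82.05 and Krt14 from 0 to 46.31 in the basal list. In the fibroblast list Pdgfra ran from 34.04 to 140.6 and Dcn from 0 to 94.12. A sum thus need not describe each of its members. The part of other cell types in the levels of the 5 genes was not tested.

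For each gene up to 3 other genes most like it are given by Pearson's r of log2(normalised count + 1) over the 8 libraries. This is a description, and all points share the same libraries and the same treatment step. Fam167a was most like the ubiquitin ligase gene Rnf19b (r = 0.9995), which averaged 2825 in KO-labelled cells under TGFβ, against 429 under SB505124, and 4991 in WT cells, against 783, and like Ctla2b (0.997). Hcar2 was most like Ccng2, Fgd6 and Sh3bp2 (0.998, 0.998 and 0.997), Prss46 like Tbcc, Pdgfb and Usf1 (0.995, 0.994 and 0.994), and Lce1f like Bok, Ftl1 and Baiap2l1 (0.993, 0.987 and 0.987). Aldh1l1 was most like Nabp1, Bdh2 and Asf1a (0.979, 0.976 and 0.976). Asf1a averaged 617.7 in KO-labelled cells under TGFβ, against 587.8 under SB505124, and 636.5 in WT cells, against 569.2. It passed in neither genotype (limma adjusted p = 0.602 in KO-labelled and 0.174 in WT cells). Bdh2, a short-chain dehydrogenase gene, had 14.4 and 16.4 in KO-labelled cells under TGFβ, against 7.45 and 3.45 under SB505124, and 23.2 and 29.7 in WT cells, against 3.04 and 2.00, and so stood low under SB505124 as well. The other genes named here averaged at least 137 in each group, so the likeness is one of shape and not of level or of size of change. Among the 5 genes themselves r ran from 0.81 (Aldh1l1 and Fam167a) to 0.98 (Hcar2 and Prss46).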

How the data were processed

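In the table the authors deposited, the signal of a gene in a library is its read count over a size factor. Per the submitters' processing notes, FastQC, HTSeq and DESeq2 were used with mm10; the aligner is not given in the sources used here. All values were whole multiples of 1 step per library (100% within 0.01 reads), so reads were recovered. Libraries came from an unstranded TruSeq v2 kit, per the labels' protocols. Of 18102 rows, 26 symbols had turned into dates.

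Values were fitted as log2(value + 1) for 12498 genes with a mean of at least 10, with limma 3.58.1 (R 4.3.3), 4 group means and a variance trend, and p-values were adjusted by Benjamini-Hochberg over all of them (threshold 0.05). Alternatives were edgeR 4.0.16 quasi-likelihood and DESeq2 1.42.0 on the recovered reads, other pseudocounts, filters and scaling, a replicate block and leaving out each library. The procedure was tested on simulated data. The 5 genes and the gene lists were chosen with earlier results of these data known. Named besides the 5 are their 3 most alike genes, nearest table genes and up to 3 genes per list with the smallest p. A few of these are not reported here. Promoters of Lce1f, Fam167a and Hcar2 were not used here. Nothing states that the 2 replicates of a group were grown apart, so a p-value here reflects only how these libraries scatter, possibly for technical reasons; that scatter exceeded sampling noise (chi-square 6.06 to 15.3 per degree of freedom). Counting error falls with depth, so values of a few reads are least precise.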

Additional observations from a re-analysis of the deposited data

Results flagged for a closer look

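The genes below, besides Aldh1l1, come from the nearest neighbours and the leading genes of each list. Of all tested genes 2.82% passed limma's test of the difference between the TGFβ responses of KO-labelled and WT cells. Denr, taken by position, passed it (limma adjusted p = 3.9e-04). Spsb1, Prss23 and Ptger4 were taken by their p in the responses that make up the difference, Prss23 and Ptger4 only through KO-labelled cells. Their differences are thus a description with no test. The difference (KO minus WT, log2) was -0.83 for Denr, the neighbour of Hcar2. It was 1.07 for the SMAD target Spsb1, 1.04 for the protease gene Prss23 and 1.42 for the prostaglandin receptor gene Ptger4. For Aldh1l1 the difference was -3.78 and is a description only, since the gene was selected on these responses. With no reads in WT cells under SB505124 it ran from -6.59 to -2.34 over the alternatives other than DESeq2.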

How the results depend on the processing

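The lower level of Fam167a in KO-labelled cells under TGFβ kept its call in all 18 alternatives, with log2 differences from -1.68 to -1.62. Aldh1l1 in that comparison ran from -1.45 to -1.24 over the single libraries left out. The difference of Prss46 under TGFβ, a description, was -1.15 with a pseudocount of 4, -1.31 in edgeR and -1.28 in DESeq2. It was -1.26 with no filter, a filter at a mean of 1, no variance trend or only the 4 libraries of the contrast. Over the libraries left out it ran from -1.64 to -0.88. Lce1f passed in edgeR (0.58), in DESeq2 (0.60) and with only the 4 libraries of the contrast (0.60). The cause was not tested. The 352 genes with different responses became 134 with no filter, 47 without a variance trend and 141 to 1027 over the libraries left out, the highest without WT TGFβ replicate 1. Those called for TGFβ in KO-labelled cells (3864) ran from 2320 to 4410.

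The replicate numbers are not stated to pair samples, and deviations of same-numbered libraries correlated at -0.20 to 0.20. With a replicate block 252 genes had different responses. No call of KO-labelled against WT cells under TGFβ changed for Fam167a, Lce1f or Hcar2. The SB505124 levels of Aldh1l1, Lce1f, Prss46 and Hcar2 rest on 0 to 6 reads in a library, which limits them.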
